A study of Macaca mulatta with 23 samples.

Results

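The genes examined were OXT and AVP, which encode the precursors of the neuropeptides oxytocin and vasopressin, and OXTR, AVPR1A and AVPR1B, which encode their receptors. Methylation positions were taken by coordinate alone, as those lying inside 5 windows of the human hg19 build: OXT on chromosome 20 from 3049 to 3057 kb, AVP on chromosome 20 from 3060 to 3069 kb, OXTR on chromosome 3 from 8789 to 8815 kb, AVPR1A on chromosome 12 from 63533 to 63550 kb and AVPR1B on chromosome 1 from 206113 to 206235 kb. The windows held 134 of the 444312 positions measured in the series, with 15 for OXT, 25 for AVP, 26 for OXTR, 59 for AVPR1A and 9 for AVPR1B.

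The data came from genomic DNA of the amygdala's central nucleus in 23 rhesus monkeys (Macaca mulatta), profiled by reduced representation bisulfite sequencing, which reads methylation at the ends of MspI fragments and so favours CpG-rich stretches. The labels name no treatment. The monkeys were aged 1.1 to 2.13 years (mean 1.34 ± 0.219, SD), and each carried an anxious temperament score between -1.48 and 1.43 (mean 0.0678 ± 0.739, SD). The left nucleus was sampled in 11 monkeys and the right in the other 12, with 1 hemisphere per animal, so replicates are separate animals. Animals are named below by hemisphere and a running number. Their original identifiers began with r in 12 animals and with B in 11, and the labels do not say what the letters mean. The labels give neither sex nor housing, and the DNA was from bulk tissue, so that a level between 0% and 100% cannot separate a share of cells from a state within cells.

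Oxytocin and vasopressin are closely related peptides cut from precursors that also contain their carrier proteins, the neurophysins, and they are made mainly by neurons of the hypothalamus. The central amygdala receives fibres that contain these peptides and carries receptors for both, and in rodents local oxytocin and vasopressin receptor activation is known to change fear and anxiety behaviour. All 3 receptors couple to Gq proteins. OXTR is the oxytocin receptor, AVPR1A the V1a vasopressin receptor found widely in brain, and AVPR1B the V1b receptor known above all from pituitary corticotrophs. CpG-dense promoters are usually unmethylated in most tissues, whereas CpGs inside gene bodies are often methylated. In a macaque RefSeq gene table (T2T-MMU8v2.0), all 5 symbols matched a protein-coding gene, and AVP and OXT were listed as direct neighbours.

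Positions with neighbours no more than 200 bp apart were joined into runs of at least 3 positions, and the 134 positions formed 6 runs with none left over. A run's level is the mean over its positions, centred per position so that a missing value does not shift it, for each monkey with values at 50% or more of them. Levels are percentages, and differences between levels are given in percentage points. Of the 134 positions, 115 (85.8%) had a mean level below 20%, 9 (6.72%) lay between 20% and 80% and 10 (7.46%) lay above 80%. Over all positions of the series these shares were 60.9%, 18.0% and 21.1%. The heatmap of all positions shows the 3 low stretches of AVP, OXTR and AVPR1A beside the mixed OXT run and the mostly methylated AVPR1B run.

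**Figure D1:**
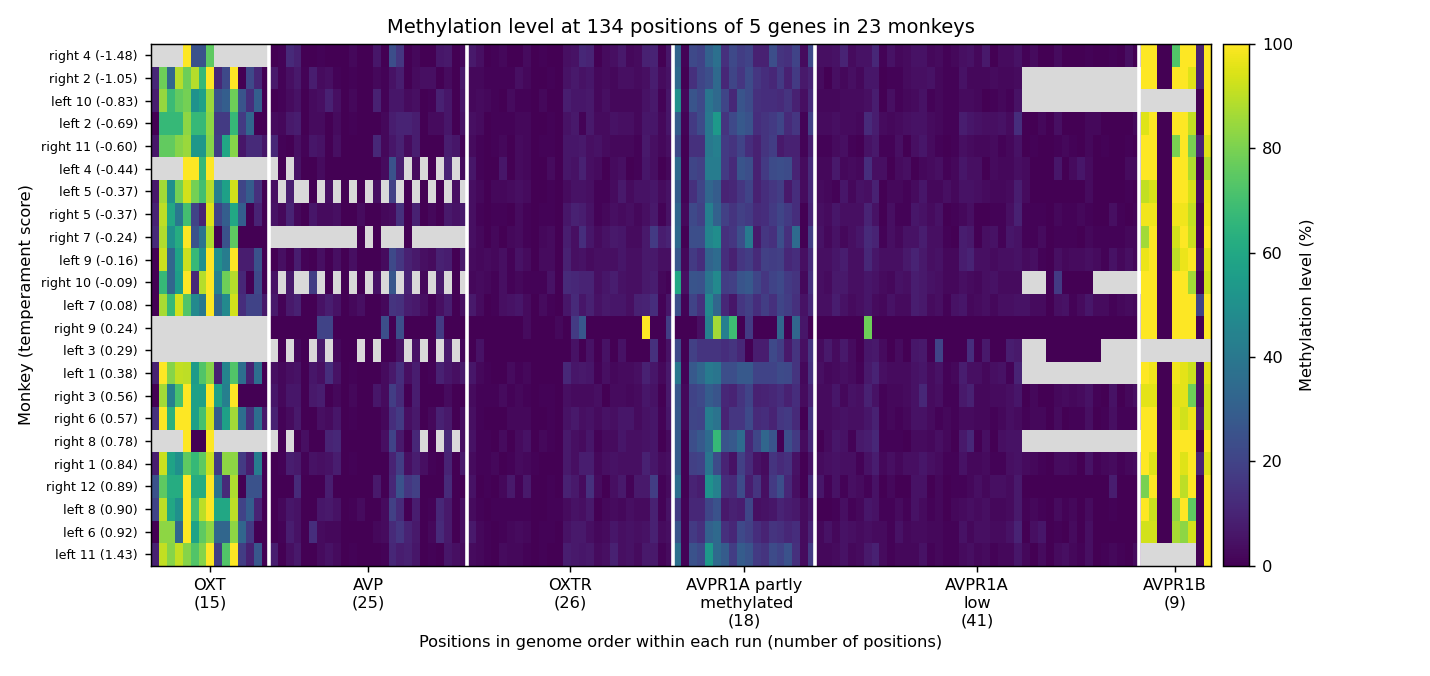
Methylation level (%, colour) at the 134 positions (columns, in genome order within each run) in 23 monkeys (rows, ordered by temperament score in brackets), with missing values in grey. OXT and AVPR1B hold most of the bright columns, and AVP, OXTR and the low AVPR1A run are dark in nearly every animal. In the OXTR and low AVPR1A runs, right 9 shows a single bright cell each among values that are mostly 0.

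The ligand gene OXT was represented by 1 run of 15 positions over 147 bp, chr20:3052307-3052453. Its level was 48.7% ± 5.84 (SD, n = 18), with a lowest value of 36.3% in right 5, a median of 48.0% and a highest value of 57.6% in right 6. Left samples ranged from 43.5% to 57.0% with a median of 49.3% (n = 9), and right samples from 36.3% to 57.6% with a median of 47.4% (n = 9). The hemispheres overlapped, and right 5 and right 7, at 37.5%, lay below every other animal. The run was not uniform along its length. Means were below 20% at 5 positions, among them the 2 end positions at 7.72% and 1.11%, and 4 positions between the ends exceeded 80%. The positions 3052397 and 3052399 had means of 54.0% ± 25.3 (SD) and 58.0%, ranging from 0% to 100% and from 0% to 90%, and their SDs were the largest of all 134 positions. Only 3 bp from the latter, position 3052402 was at 92.7% ± 8.26 (SD, n = 21). The median SD of the OXT positions was 12.5 points, against 3.49 points over all positions of the series. Most positions of the series lie below 20% or above 80%, where the spread is bounded, so this is not a like comparison. Among 18894 runs with a mean level between 20% and 80%, whose median SD was 4.86 points, the SD of the OXT run stood at the 61.4th percentile.

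The ligand gene AVP was represented by 25 positions over 125 bp, chr20:3063683-3063807, all with means below 20%. The run level was 3.69% ± 0.709 (SD, n = 20), from 1.56% in left 3 through a median of 3.75% to 4.60% in left 7. Left samples had a mean of 3.62% ± 0.929 (SD, n = 10) and a median of 3.70%. Right samples ran from 2.96% to 4.40%, with a mean of 3.75% ± 0.435 (SD, n = 10) and a median of 3.75%, inside the range of the left ones. Without left 3 and right 9, the libraries with the most missing values, the level was 3.78% ± 0.523 (SD, n = 18). The highest AVP positions were the neighbouring bases 3063765 and 3063766, at 12.8% ± 8.08 (SD, n = 22) and 12.9% ± 5.55 (SD, n = 20). Positions 3063738 and 3063747 were listed at 0 in every monkey with a value. The neighbouring genes had measured stretches of different kinds, an intermediate one at OXT and a low one at AVP.

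All 26 OXTR positions lay in 1 run of 132 bp, chr3:8810874-8811005, of which all but the last 2 positions lie in the stretch from 8809 to 8811 kb taken as its promoter island and first exons, and no position elsewhere in the OXTR window was measured. The run level was 3.37% ± 1.02 (SD, n = 23), from 1.69% in left 3 through a median of 3.00% to 6.42% in right 9. The next highest animal, left 7, was at 5.12%. The left mean was 3.13% ± 0.869 (SD, n = 11) with a median of 2.96%. Right samples started at 2.35%, with a mean of 3.59% ± 1.14 (SD, n = 12) and a median of 3.15%, and the hemispheres overlapped. Without left 3 and right 9 the level was 3.31% ± 0.737 (SD, n = 21). Position means ran from 0.0870% at 8810935 to 10.1% at 8810998, with a group of 4 positions from 8810970 to 8810974 between 5.96% and 6.87%. OXTR was the only one of the 5 genes with values in all 23 monkeys at every position.

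AVPR1A had 2 runs that differed in level within the same window. The partly methylated run held 18 positions over 121 bp, chr12:63543647-63543767, and the low run held 41 positions over 267 bp, chr12:63544262-63544528. The partly methylated run was at 17.7% ± 3.70 (SD, n = 23), from 10.0% in left 8 through a median of 17.2% to 23.4% in left 1. Left samples ranged from 10.0% to 23.4% (median 16.9%, n = 11) and right samples from 13.1% to 23.3% (median 17.6%, n = 12). Its SD stood at the 87.4th percentile of the 11274 runs of the series with a mean level below 20%, whose median SD was 0.982 points, a class that also holds runs near 0. The highest positions were the neighbouring bases 63543702 and 63543703, at 37.3% and 39.1%. Right 9 held the highest value at 63543703, 86% with the next animal at 67%, and without right 9 the mean there was 37.0%. The low run was at 2.71% ± 0.693 (SD, n = 23), from 1.65% in left 10 through a median of 2.68% to 4.37% in left 9. Its right samples ran from 1.80% to 3.51% (median 2.66%, n = 12), within the span of the left ones (median 2.68%, n = 11).

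AVPR1B was represented by 9 positions within 65 bp of a 122 kb window, chr1:206230960-206231024. The window is wide enough to hold other genes, which was not checked, so these positions are assigned to AVPR1B by the window alone. The run level was 64.6% ± 1.98 (SD, n = 20), from 61.0% in left 6 through a median of 64.6% to 68.9% in left 7. Both hemispheres had a median of 64.6%, and the right samples, from 62.1% to 67.1% (n = 12), fell within the span of the left ones (n = 8). No value could be formed for left 3, left 10 and left 11. That level is a mean over 2 kinds of position. At 6 positions the mean lay between 92.6% and 98.3%, and at the other 3 it lay near 0: positions 206230971 and 206230974 were listed at 0 in 20 of 20 monkeys, and position 206231011 was at 3.64% ± 5.24 (SD, n = 22) with 12 of 22 monkeys at 0. With its positions near 100% or near 0, the spread of this run is bounded, and it was not compared with that of other runs.

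**Figure D2:**
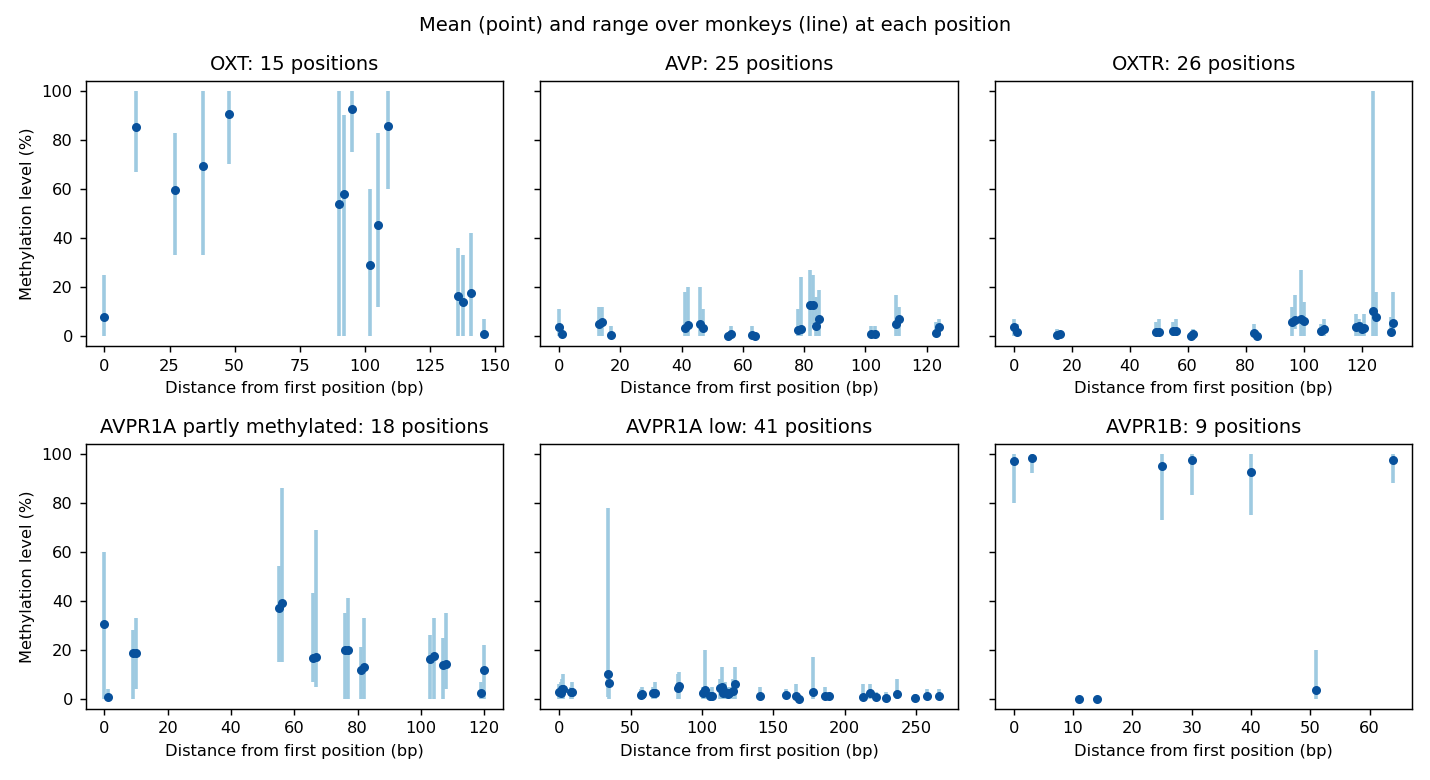
Mean methylation level (points, %) and range over monkeys (lines) at each position against the distance from the first position of its run (bp), 1 panel per run. OXT is low at both ends and moves up and down from position to position between them. AVPR1B alternates between positions above 90% and positions near 0. AVP, OXTR and the low AVPR1A run stay low apart from single wide ranges.

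Ordered by run level, AVPR1B came first, then OXT, the partly methylated AVPR1A run, AVP, OXTR and the low AVPR1A run. The first 3 steps held in every animal with both values. AVPR1B exceeded OXT in 16 of 16 monkeys by 16.0 ± 6.18 points (SD), OXT exceeded the partly methylated AVPR1A run in 18 of 18 by 31.2 ± 7.69 points, and that run exceeded AVP in 20 of 20 by 13.7 ± 3.58 points. The last 2 steps were within the spread between animals. AVP exceeded OXTR in 15 of 20 monkeys by 0.406 ± 0.816 points, and OXTR exceeded the low AVPR1A run in 18 of 23 by 0.667 ± 1.16 points. The last step turned over positions with values in all monkeys, where the low AVPR1A run was at 3.53% and OXTR at 3.37%.

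Adjacent bases give an internal check, since the 2 strands of 1 CpG would be listed as neighbouring coordinates, although the file names no strand. There were 47 such pairs, 12 at AVP, 13 at OXTR and 22 at AVPR1A, and none at OXT or AVPR1B. The mean levels of the 2 bases differed by no more than 2 points in 38 of 47 pairs. All 47 pairs lay in runs with a mean level below 20%, where large differences have less room. The pairs of the series were not matched for level, so the medians and shares that follow are not a like comparison. The median difference was 0.739 points, against 1.02 points over 116411 pairs of the series. A difference above 10 points occurred in 1 of 47 pairs (2.13%), against 15846 pairs (13.6%) of the series. That pair was AVPR1A 63543647 and 63543648, at 30.4% and 0.957%, with the first base higher in 22 of 23 monkeys. At the other end of the same run, 63543766 was at 2.61% and 63543767 at 11.9%, with the second base higher in 22 of 23 monkeys. At OXTR the last pair, 8811004 and 8811005, was at 1.70% and 5.43%, with the second base higher in 21 of 23.

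**Figure D3:**
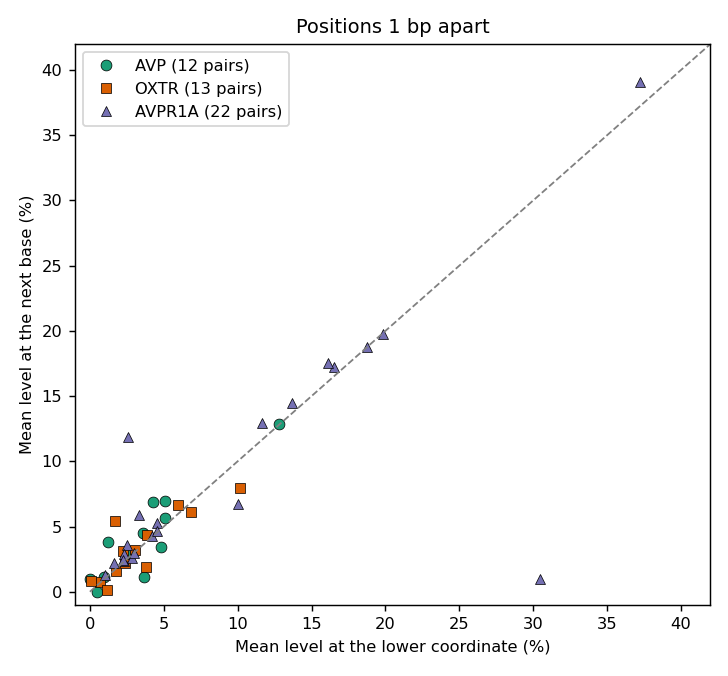
Mean level (%) at the higher of 2 adjacent coordinates against that at the lower one, for 47 pairs (circles AVP, squares OXTR, triangles AVPR1A), with the line of equality dashed. The AVPR1A pair at 30.4% and 0.957% lies farthest from the line, and 38 of 47 pairs lie within 2 points of it.

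A few single values lay more than 20 points from the next animal, and all came from 1 library. Right 9 was at 100% at OXTR 8810998, where the next animal was at 10%, and without it the mean there fell from 10.1% to 6.05% ± 2.26 (SD). Right 9 was likewise at 78% at AVPR1A 63544296, with the next animal at 13%, and at 69% at AVPR1A 63543714, with the next at 28%. In the same animal 20 of 26 OXTR positions, 20 of 25 AVP positions, 40 of 41 positions of the low AVPR1A run and 9 of 18 of the partly methylated one were at 0. Across the whole table right 9 lacked 21.2% of values and left 3 lacked 49.7%, more than any other library. At the 134 positions left 3 lacked 31.3%, right 8 lacked 23.1% and left 10, right 7 and right 10 lacked 16.4% each. Read depth is unknown, because the file holds no counts, so no counting interval can be given for any level.

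The study related methylation to anxious temperament as a continuous trait with age as covariate, and the same model was fitted here with limma over the whole table. A position was tested if 20 or more monkeys had a value there and these spanned 10 points or more, which held for 53 of the 134. Of the others, 31 had values in fewer monkeys and 50 had a narrower range. By gene, 4 OXT, 12 AVP, 7 OXTR, 24 AVPR1A and 6 AVPR1B positions were tested. None of the 53 passed a Benjamini-Hochberg adjusted p of 0.05 for the score, and neither did any of the 192151 positions tested in the series (0.0%). At an unadjusted p below 0.05 there were 2 of 53, against 3.12% of the series. Slopes were positive at 27 positions and negative at 26, with a median of 0.03 points per score unit, against 0.09 over all positions tested. By gene, positive slopes numbered 4 of 4 at OXT, 8 of 12 at AVP, 4 of 7 at OXTR, 9 of 24 at AVPR1A and 2 of 6 at AVPR1B.

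The smallest p belonged to AVPR1B 206230990, where left samples ranged from 83% to 100% and right samples from 90% to 100%, both with a median of 100%. Its slope was -3.64 ± 1.30 (SE) points per score unit (limma, unadjusted p = 0.0103, adjusted p = 1, n = 20), and -2.42 ± 1.03 points without left 6. Next came OXT 3052402, where left samples ranged from 82% to 100% (median 94.5%) and right samples from 75% to 100% (median 95%). Its slope was 4.58 ± 2.14 (SE) points (limma, unadjusted p = 0.0436, adjusted p = 1, n = 21). Right 4, with the lowest score, held the value of 75%, and without it the slope was 2.81 ± 2.30 points (limma, unadjusted p = 0.234). In the other windows the smallest unadjusted limma p was 0.0597 at AVP 3063768, 0.199 at AVPR1A 63543767 and 0.522 at OXTR 8810973. AVP 3063768 ranged from 3% to 8% in left samples (median 7%) and from 0% to 19% in right samples (median 8%), with a slope of 2.26 ± 1.14 (SE) points. AVPR1A 63543767 ranged from 6% to 19% in left samples (median 12%) and from 0% to 22% in right samples (median 10.5%), with a slope of -1.88 ± 1.43 (SE) points. OXTR 8810973 ranged from 0% to 9% in left samples (median 6%) and from 3% to 27% in right samples (median 7.5%), with a slope of -1.01 ± 1.55 (SE) points. All 3 ranges overlapped between hemispheres.

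Only 2 of the 6 runs met the requirements for the run fit, which were values in 20 monkeys and a span of 5 points or more, and neither was called for the score (0 of 18924 runs in the series, 0.0%). Neither had an unadjusted p below 0.05, against 3.16% of the runs. The AVPR1B run had a slope of -0.65 ± 0.754 (SE) points per score unit (limma, unadjusted p = 0.399, n = 20), and of -0.33 ± 0.771 points without left 6. The partly methylated AVPR1A run had a slope of -0.51 ± 1.04 (SE) points (limma, unadjusted p = 0.627, n = 23), which was -2.82 ± 1.40 in the 12 animals with r identifiers and 0.99 ± 1.86 in the 11 with B identifiers, and the difference between these was not tested. With no range filter the OXTR run could be fitted too, with a slope of 0.05 ± 0.304 (SE) points (limma, unadjusted p = 0.882, n = 23). In that fit the AVP run gave 0.27 ± 0.220 points (limma, unadjusted p = 0.227, n = 20) and the low AVPR1A run 0.03 ± 0.210 points (limma, unadjusted p = 0.869, n = 23).

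The OXT run had values in 18 monkeys and entered only a fit with the minimum lowered to 17, a setting chosen after seeing the data. The lowest animals, right 5 and right 7, had scores of -0.37 and -0.24. The highest, right 6 at 57.6%, left 11 at 57.0% and left 8 at 56.7%, had scores of 0.57, 1.43 and 0.90. Other animals lay off this order. Among animals with a run level, right 2, left 10, left 2 and right 11 had the lowest scores (-1.05, -0.83, -0.69 and -0.60). These animals were at 47.4%, 47.4%, 43.5% and 47.2%. Right 4, with the lowest score of all (-1.48), had no run level and is absent from this fit. Left 6 and right 12, with scores of 0.92 and 0.89, were at 47.6% and 49.1%, and left 5, at -0.37, was at 54.0%. The slope was 4.42 ± 1.72 (SE) points per score unit (limma, unadjusted p = 0.0200, adjusted p = 1, n = 18), in a fit where 3.36% of 25387 runs had an unadjusted p below 0.05 and 0 were called. Within identifier series the slope was 3.84 ± 2.86 (SE, n = 9) for r and 4.13 ± 1.84 (SE, n = 9) for B, whose mean levels were 45.6% ± 5.32 and 51.9% ± 4.67 (SD). Leaving out 1 monkey at a time gave slopes from 3.81 to 5.02 with unadjusted p between 0.00846 and 0.0664, the highest p without left 11. With the plain mean of whatever values were present, which adds left 4, right 4 and right 8 with values at only 4 of the 15 positions, the slope was 0.72 ± 3.12 (SE) points (limma, unadjusted p = 0.821, n = 21). Of the 14 OXT positions in the lowered fit, 12 had a positive slope and 2 a negative one. These positions lie within 147 bp and are not independent of each other.

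**Figure D4:**
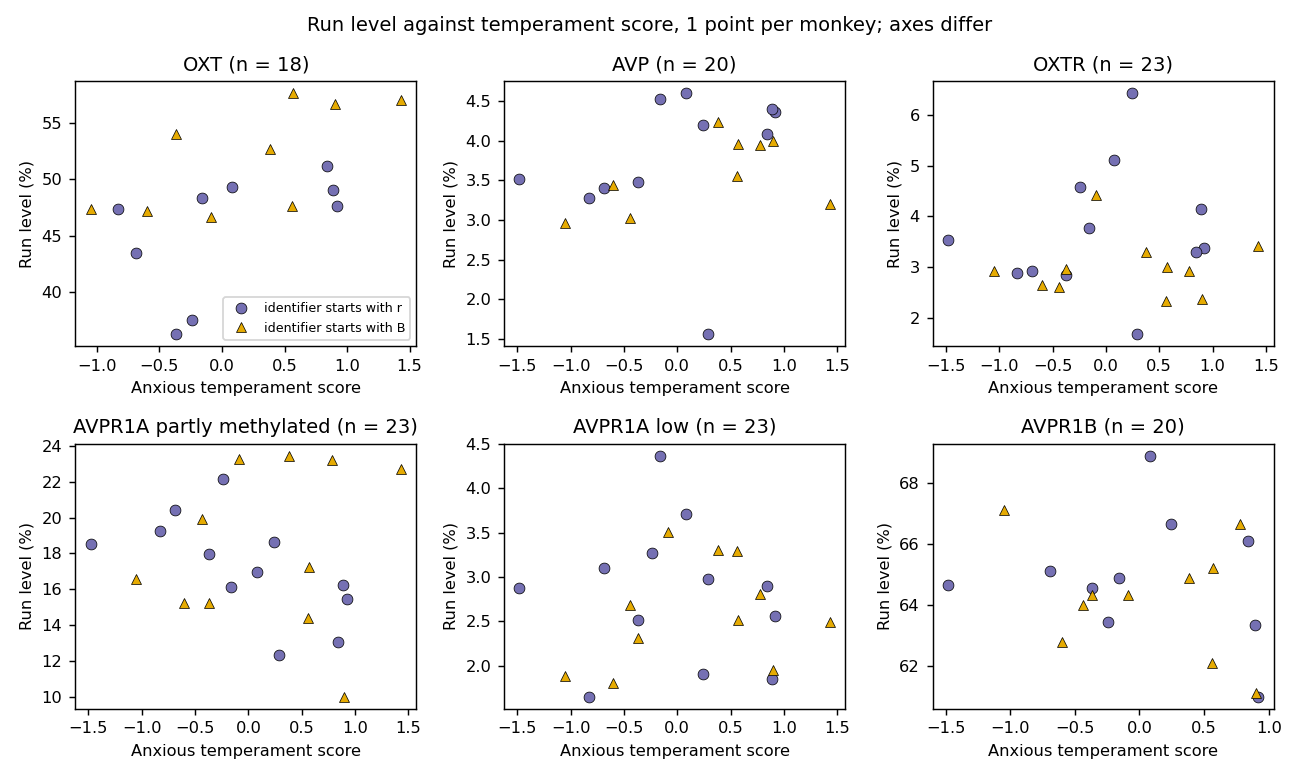
Run level (%) against anxious temperament score, 1 point per monkey, circles for identifiers beginning with r and triangles for B, with a separate axis range in each panel. OXT levels of 36.3% and 37.5% sit at scores of -0.37 and -0.24 and the 3 highest at 0.57 to 1.43. Right 2, with the lowest score in the OXT panel (-1.05), is at 47.4%, and left 6, at 0.92, is at 47.6%. For the partly methylated AVPR1A run the slope was -2.82 ± 1.40 (SE) points in r animals and 0.99 ± 1.86 in B animals, a difference that was not tested.

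For hemisphere, asked as right minus left with score and age in the model, 0 of 53 positions were called by limma, as were 0.0% of the 192151 in the series. At an unadjusted p below 0.05 there was 1 of 53, against 3.48% of the series. That position was OXT 3052397, where left samples ranged from 47% to 100% (median 67%, n = 10) and right samples from 0% to 89% (median 53%, n = 11). The difference was -24.07 ± 9.87 (SE) points (limma, unadjusted p = 0.0234, adjusted p = 0.930, n = 21), and the ranges overlapped widely. Without right 8, which was at 0% there, the difference was -19.33 ± 9.38 points (limma, unadjusted p = 0.0521). Without left 4, which was at 100% there, it was -20.13 ± 9.82 points (limma, unadjusted p = 0.0533). Left 4, right 4 and right 8 had values at only a minority of the OXT positions, this one among them. In the other windows the smallest unadjusted limma p values were 0.0580 at AVPR1A 63544385, 0.0885 at AVP 3063766, 0.152 at OXTR 8810973 and 0.707 at AVPR1B 206231011. AVPR1A 63544385 ranged from 4% to 13% in left samples (median 7%) and from 0% to 9% in right samples (median 5%). AVP 3063766 ranged from 5% to 16% in left samples (median 11%) and from 7% to 25% in right samples (median 15%). AVPR1B 206231011 ranged from 0% to 20% in left samples (median 0%) and from 0% to 10% in right samples (median 2%). None of these groups were separated.

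By run, right minus left was 0.69 ± 1.54 (SE) points for the partly methylated AVPR1A run (limma, unadjusted p = 0.658, n = 23) and 0.46 ± 1.08 points for AVPR1B (limma, unadjusted p = 0.677, n = 20). The plain mean of the values present adds left 10 and left 11, which had values only at 206231011 (0%) and 206231024 (100%). With that mean, which such missing positions shift, the AVPR1B difference was 3.36 ± 1.98 points (limma, unadjusted p = 0.105, n = 22). In the r animals alone it was -0.39 points, and leaving out 1 monkey at a time gave 0.0337 to 1.19 for AVPR1B and 0.0253 to 1.30 for AVPR1A. With all monkeys and the centred mean neither run was called (0.0% of runs in the series) or had an unadjusted p below 0.05 (3.31%). For OXT, in the fit with the lowered minimum, it was -3.40 ± 2.34 points (limma, unadjusted p = 0.165, n = 18). It was -6.69 ± 4.62 points with the plain mean (limma, unadjusted p = 0.163, n = 21), -6.90 ± 3.37 points in the 9 r animals, and -4.38 ± 1.83 points with the identifier series as a covariate (limma, unadjusted p = 0.0299, adjusted p = 0.979, n = 18). With no range filter it was 0.46 ± 0.441 points for OXTR (limma, unadjusted p = 0.312, n = 23), 0.19 ± 0.346 points for AVP and -0.21 ± 0.310 points for the low AVPR1A run. The OXTR extremes were left 3 at 1.69% and right 9 at 6.42%, the libraries with the most missing values. The OXTR run was not fitted without them.

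**Figure D5:**
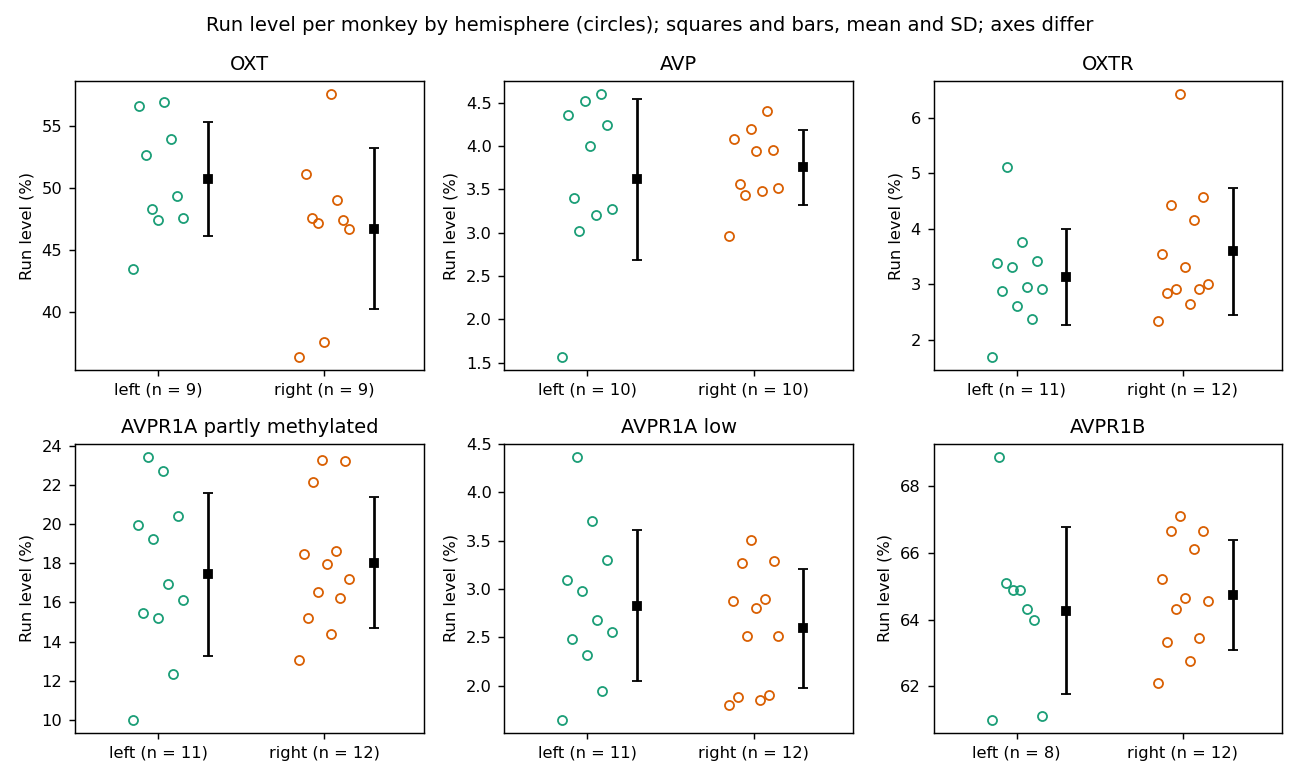
Run level (%) per monkey (circles) in left and right samples, with group mean and SD (squares and bars) and a separate axis range in each panel. Left and right values overlap in all 6 runs, and the 2 lowest OXT levels, 36.3% and 37.5%, are both right samples.

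Whether the slope on the score differed between hemispheres was tested as an interaction, and 0 of 53 positions were called by limma (0.0% in the series). At an unadjusted p below 0.05 there was 1 of 53, against 3.24% of the series. That position was AVPR1B 206230985, singled out after its values were seen. The mean was 94.8% in both hemispheres, with an SD of 6.98 points on the left (n = 8) and 8.93 on the right (n = 12). The slope on the score alone was -8.94 points per unit on the left and 7.61 on the right, and with age in the model the difference was 18.17 ± 4.26 (SE) points (limma, unadjusted p = 0.000387, adjusted p = 1, n = 20). The slopes rest on 6 animals below 95%. In left samples these were left 6 at 87%, left 8 at 83% and left 9 at 90%, with scores of 0.92, 0.90 and -0.16. In right samples they were right 4 at 73%, right 11 at 80% and right 7 at 93%, with scores of -1.48, -0.60 and -0.24. The other animals were at 95% or above. Without right 4 the difference was 14.18 ± 3.86 (SE) points. Of the runs, AVPR1B gave a difference of 2.42 ± 1.71 (SE) points and the partly methylated AVPR1A run 1.00 ± 2.23, neither with an unadjusted limma p below 0.05 (3.93% of runs in the series).

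For age, 0 of 53 positions were called by limma, against 102 (0.0531%) in the series, and 1 of 53 had an unadjusted p below 0.05, against 4.06%. That position was AVPR1A 63543657, at 11% to 33% in left samples (median 19%) and 4% to 28% in right samples (median 20%). Its slope was 15.23 ± 6.08 (SE) points per year (limma, unadjusted p = 0.0193, adjusted p = 1.00, n = 23), and the highest value, 33%, was that of left 1, the oldest animal at 2.13 years. Without left 1 the slope was 9.90 ± 10.2 (SE) points per year (limma, unadjusted p = 0.341). Within the r animals, aged 1.18 to 1.45 years, the slope had the opposite sign, at -10.73 points per year. AVPR1A positions had positive age slopes in 19 of 24 cases, AVP in 3 of 12, OXT in 3 of 4, OXTR in 3 of 7 and AVPR1B in 3 of 6. The AVPR1A signs depended on left 1, with 12 of 25 positive without that animal. In the other windows the counts without left 1 were 3 of 12 at AVP, 4 of 4 at OXT, 2 of 7 at OXTR and 3 of 6 at AVPR1B. Over all members, positive age slopes fell from 31 of 53 to 24 of 54 positions without left 1. The median member slope went from 0.73 to -0.94 points per year, and that of the series from 0.52 to 0.56. Without left 1, 0 of 192621 positions of the series were called. The smallest unadjusted limma p in the other windows was 0.207 at AVPR1B 206230960, 0.228 at AVP 3063724, 0.251 at OXT 3052399 and 0.265 at OXTR 8810970. AVPR1B 206230960 ranged from 80% to 100%, AVP 3063724 from 0% to 18%, OXT 3052399 from 0% to 90% and OXTR 8810970 from 0% to 12%. By run, the slope was 5.33 ± 3.50 (SE) points per year for the partly methylated AVPR1A run (limma, unadjusted p = 0.142, adjusted p = 0.916, n = 23) and 0.34 ± 2.26 points for AVPR1B (limma, unadjusted p = 0.881, n = 20). Without left 1 they were 1.74 ± 5.86 and -0.33 ± 3.94. With all monkeys 0.00528% of runs in the series were called and 6.04% had an unadjusted p below 0.05.

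The tested run with the largest SD between monkeys was the partly methylated AVPR1A run, and the runs elsewhere whose level followed it most closely across monkeys were sought among 18922 tested runs. The first was chr9:136514760-136514892, with 6 positions, a level of 45.2% and a Pearson r of 0.726 over 20 monkeys. The next was chr15:90741319-90741440, with 9 positions, a level of 77.4% and r of 0.706 over 22 monkeys. The third was chr5:95161022-95161156, with 8 positions, a level of 56.5% and r of 0.685 over 21 monkeys. All points share their libraries, and these are the highest values of a search over many runs, given as a description.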

How the data were processed

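Reduced representation bisulfite libraries, each from a single monkey, were sequenced, per the labels' protocols. Bismark 0.11.1 and the hg19 build of the human genome are listed, per the submitters' processing notes. The authors deposited a methylation fraction (0 to 1, 2 decimals) per position and monkey, with no read counts, coverage or strand. Positions of this macaque material thus carry human coordinates, and the macaque base at each position was not examined. No annotation or sequence of hg19 was used, so exons, introns, pathway genes and cell type markers are not analysed here.

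Fractions were multiplied to percent. Linear models with score and age, then with hemisphere and with score by hemisphere, were fitted with limma 3.58.1 (R 4.3.3, with version 1.17.8 of the data.table package) with its variance moderation (trend on the mean level) applied to row-wise least squares that drop missing values, 2-sided, adjusted by Benjamini-Hochberg over all tested features. The scripts were tested on simulated data. Descriptions used Python 3.11.15, pandas 2.3.3, numpy 2.4.6 and matplotlib 3.10.9. Named positions are those with the smallest p per window and term, besides every run. The members and lists were chosen with earlier results of these data known. Alternatives covered scale, filters, covariates, run building and left-out libraries.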

Additional observations from a re-analysis of the deposited data

How the results depend on the processing

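No position or run of the 5 genes was called by limma for score, age, hemisphere or score by hemisphere under any alternative run. The number of member positions with an unadjusted p below 0.05 ranged over these from 0 to 3 for score, 0 to 3 for age, 0 to 5 for hemisphere and 0 to 2 for score by hemisphere. The number tested changed with the setting, so these counts are not on 1 base. With no range filter they were 5 of 99 for hemisphere, against 10757 of 344933 positions of the series. In that fit they were 3 of 99 for score (8946 in the series), 2 of 99 for age (11401) and 1 of 99 for score by hemisphere (8886). The direction turned in few cases, and the cause was not tested. In the B animals alone the score slope of the partly methylated AVPR1A run was 0.99. In the r animals alone the age slopes were -7.02 for that run, -6.14 for the AVPR1B run and -10.73 for AVPR1A 63543657, and the hemisphere difference of the AVPR1B run was -0.39. The AVPR1B age slope was -0.40 with the library's mean level as covariate, also with the minimum of 17 monkeys, and -0.33 without left 1. Leaving out 1 monkey at a time gave -1.33 to 0.0461 for the score slope of the partly methylated AVPR1A run, positive only without left 8. It gave -0.33 to 0.87 for the AVPR1B age slope, negative without left 1, with -0.24 without right 2 and -0.32 without right 11. The low AVPR1A run was at 3.53% over positions with values in all monkeys, which leaves out its end where 17 to 19 monkeys had values. A stricter coverage minimum was not run, since the file holds no coverage. No paired analysis was possible because left and right samples come from different animals, whose running numbers follow accession order.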
